A study of Mus musculus with 8 samples.

Results

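Transcripts of 10 genes of insulin-like growth factor (IGF) and insulin signalling were examined in skeletal muscle, namely the ligand Igf1, the receptors Igf1r and Insr, the receptor substrates Irs1 and Irs2, and the IGF-binding proteins Igfbp3, Igfbp4, Igfbp5, Igfbp6 and Igfbp7. They were taken by name from the 55487 genes of the deposited table, and all 10 had at least 10 counts in every library, as did 15135 genes in all. RNA came from 8 male C57BL/6J mice, 10 weeks old, which had both hindlimbs fixed in casts for 8 days and received K14Q MOTS-c, a variant of the mitochondrial-derived peptide MOTS-c, injected into the peritoneum 2 times a day at 15 mg/kg/day. All 8 mice belong to this 1 group. Libraries from mice on wild-type MOTS-c and from controls were not analysed here, and no value below is an effect of the peptide or of the cast. The sample labels name vastus lateralis as the muscle, whereas the design text and the methods name gastrocnemius, and the values cannot tell which is right. Libraries of poly-adenylated RNA held between 23985356 and 33012497 counts. The 10 most abundant genes took 18.8 to 26.2% of them. All 10 genes of the fast fibre and muscle list were abundant, the lowest, Pvalb, with a mean of 48391 normalized counts.

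Igf1 is made in liver, muscle and other tissues and signals through Igf1r, a receptor tyrosine kinase closely related to the insulin receptor Insr. Both receptors phosphorylate Irs1 and Irs2, which recruit phosphatidylinositol 3-kinase and so activate AKT and mTOR signalling and hold FoxO factors in the cytoplasm, a balance between protein synthesis and breakdown in muscle. The binding proteins are secreted: Igfbp3 to Igfbp6 bind IGFs with high affinity and can restrain or prolong their action, and Igfbp7 binds IGFs weakly.

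The 250 bases before the start of transcription are shown for 7 of these genes, because in these mice Igf1r and Igfbp3 varied together, Irs1 varied against Irs2, and Igfbp4, Igfbp6 and Igfbp7 varied together (below). None of these pairs passed adjustment over all relations tested, and the relation of Irs1 and Irs2 depended on the scaling of the libraries. Sequences are those of RefSeq on GRCm38.p6, where 9 of the 10 genes had an entry, and read 5′ to 3′ on the strand of the gene. The RefSeq starts differ from the gene positions given below, which are those of GENCODE M21, for some genes, among them Igf1r, Irs2 and Igfbp6. Capitals mark every match, on either strand, to the GC box GGGCGG, the TATA box TATAAA, the E-box CACGTG or the FoxO core GTAAACA.
Igf1r (chr7:67952007-67952256, plus strand): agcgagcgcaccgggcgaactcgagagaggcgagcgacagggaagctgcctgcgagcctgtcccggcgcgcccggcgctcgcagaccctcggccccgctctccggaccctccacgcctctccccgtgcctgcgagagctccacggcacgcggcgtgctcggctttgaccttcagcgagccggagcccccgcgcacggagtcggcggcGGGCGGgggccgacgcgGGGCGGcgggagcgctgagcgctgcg
Igfbp3 (chr11:7213924-7214173, minus strand): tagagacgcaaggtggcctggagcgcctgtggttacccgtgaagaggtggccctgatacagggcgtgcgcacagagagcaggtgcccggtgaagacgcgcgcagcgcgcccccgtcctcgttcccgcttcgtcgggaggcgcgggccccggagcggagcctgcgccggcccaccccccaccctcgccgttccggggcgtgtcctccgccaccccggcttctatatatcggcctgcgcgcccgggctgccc
Irs1 (chr1:82291440-82291689, minus strand): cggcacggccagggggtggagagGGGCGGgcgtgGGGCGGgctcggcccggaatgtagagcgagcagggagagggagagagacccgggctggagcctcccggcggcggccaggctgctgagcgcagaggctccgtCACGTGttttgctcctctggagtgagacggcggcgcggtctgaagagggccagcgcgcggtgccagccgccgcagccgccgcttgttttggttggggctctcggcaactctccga
Irs2 (chr8:11008930-11009179, minus strand): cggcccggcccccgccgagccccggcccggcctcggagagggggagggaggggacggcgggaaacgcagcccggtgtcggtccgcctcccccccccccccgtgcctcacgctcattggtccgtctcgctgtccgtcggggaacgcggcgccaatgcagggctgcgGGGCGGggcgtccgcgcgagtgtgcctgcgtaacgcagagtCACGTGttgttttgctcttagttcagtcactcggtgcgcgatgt
Igfbp4 (chr11:99040994-99041243, plus strand): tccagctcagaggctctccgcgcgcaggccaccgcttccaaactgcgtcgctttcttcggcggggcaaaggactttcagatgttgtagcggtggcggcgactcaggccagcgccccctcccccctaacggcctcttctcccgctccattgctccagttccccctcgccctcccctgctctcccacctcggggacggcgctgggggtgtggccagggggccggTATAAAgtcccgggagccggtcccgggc
Igfbp6 (chr15:102143936-102144185, plus strand): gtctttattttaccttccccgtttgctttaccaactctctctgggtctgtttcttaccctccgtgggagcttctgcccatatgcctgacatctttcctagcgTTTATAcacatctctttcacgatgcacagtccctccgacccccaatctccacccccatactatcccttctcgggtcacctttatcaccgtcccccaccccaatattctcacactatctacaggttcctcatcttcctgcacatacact
Igfbp7 (chr5:77408046-77408295, minus strand): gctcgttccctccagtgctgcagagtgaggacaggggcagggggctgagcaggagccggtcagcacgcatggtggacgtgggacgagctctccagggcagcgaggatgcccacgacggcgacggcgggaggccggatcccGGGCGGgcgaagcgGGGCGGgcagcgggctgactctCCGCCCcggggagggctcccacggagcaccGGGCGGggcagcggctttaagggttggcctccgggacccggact

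The upstream regions of Irs1 and Irs2 each held an E-box, from base -115 to base -110 in Irs1 and from base -44 to base -39 in Irs2, where base -1 is the last before the RefSeq start. That motif was found in the same window of 6.02% of 32851 RefSeq promoters. GC boxes, present in 32.7% of promoters, stood upstream of 4 of the 9 genes, with 4 matches in Igfbp7 and 2 each in Igf1r and Irs1. Igfbp4 had a TATA box from base -28 to base -23 and Igfbp6 had one on the other strand, against 12.4% of promoters. None of the 9 windows held the FoxO core, which 3.17% of promoters held. The upstream sequences of Igf1r, Igfbp7, Igfbp3, Irs2, Irs1 and Igfbp4 had GC contents of 69.2 to 77.6% and that of Igfbp6 one of 49.6%, against a median of 52.4% over all promoters. These matches describe letters in the windows and are not evidence of binding.

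Normalized counts are given first, that is, the authors' counts divided by 1 size factor per library. Igf1 (ENSMUSG00000020053, chr10:87858265-87937042 of GRCm38) ranged from 410 in mouse 3 to 861 in mouse 2, with a median of 530 and a mean of 566 ± 153 (SD, n = 8). Mice 2, 6 and 1 had the highest Igf1, and the other 5 mice lay between 410 and 536. Its coefficient of variation (CV) was 27.0%, where counting alone gives 4.25%. In whole muscle, as in every value below, fewer cells of a type cannot be told apart from less RNA per cell.

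Igf1r (ENSMUSG00000005533, chr7:67952827-68233668) ranged from 594 in mouse 7 to 1158 in mouse 5, with a median of 853 and a mean of 879 ± 188 (SD, n = 8). Insr (ENSMUSG00000005534, chr8:3122061-3279617) ranged from 2461 in mouse 7 through a median of 2875 to 4037 in mouse 5, with a mean of 3006 ± 524 (SD, n = 8). The same animals therefore stood at the bottom and at the top for both receptors, and mice 3, 4 and 5 were the 3 highest for each. The CV was 21.4% for Igf1r and 17.4% for Insr.

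Irs1 (ENSMUSG00000055980, chr1:82233101-82291416) was the steadiest of the 10 genes, from 753 in mouse 4 through a median of 927 to 1050 in mouse 2, a CV of 10.8%. Irs2 (ENSMUSG00000038894, chr8:10984681-11008458) ran from 930 in mouse 2 through a median of 1508 to 2251 in mouse 4, a CV of 30.1%. The mouse with the least Irs1 thus had the most Irs2, and the mouse with the most Irs1 had the least Irs2. Exons of Irs1 share 2822 bases with Gm9747 on the opposite strand, a gene listed at a mean of 0.385 normalized counts, and whether the counting used strand is not given in the sources used here.

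Igfbp5 (ENSMUSG00000026185, chr1:72857932-72874884), a binding protein made by muscle and connective tissue cells, ranged 5.92-fold between mice. Its normalized counts were 2488 in mouse 3 and 2694 in mouse 5 at the low end, and 11046 in mouse 2 and 14729 in mouse 7 at the high end, around a median of 6045. Igfbp3 (ENSMUSG00000020427, chr11:7206086-7213923), which carries most circulating IGF in a complex with the acid-labile subunit, ranged 4.43-fold. It was lowest in mouse 7 with 339 and highest in mouse 5 with 1500, around a median of 541, and mice 3 and 4, with 954 and 875, came next. The 2 mice with the least Igfbp5 were the 2 with the most Igfbp3.

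Igfbp4 (ENSMUSG00000017493, chr11:99041244-99054392), a binding protein cleaved by the protease Pappa, ranged from 743 in mouse 8 through a median of 1087 to 1302 in mouse 3. Igfbp6 (ENSMUSG00000023046, chr15:102144362-102149511), which prefers IGF-II, ranged from 170 in mouse 8 through a median of 326 to 390 in mouse 2. Igfbp7 (ENSMUSG00000036256, chr5:77349240-77408041) ranged from 597 in mouse 8 through a median of 797 to 1124 in mouse 2. For each of the 3 genes mouse 8 had the lowest value and mice 1 and 2 were among the 3 highest. An 85-base stretch of Igfbp7 exons overlaps Polr2b on the opposite strand, which had a mean of 1644 normalized counts.

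**Figure D1:**
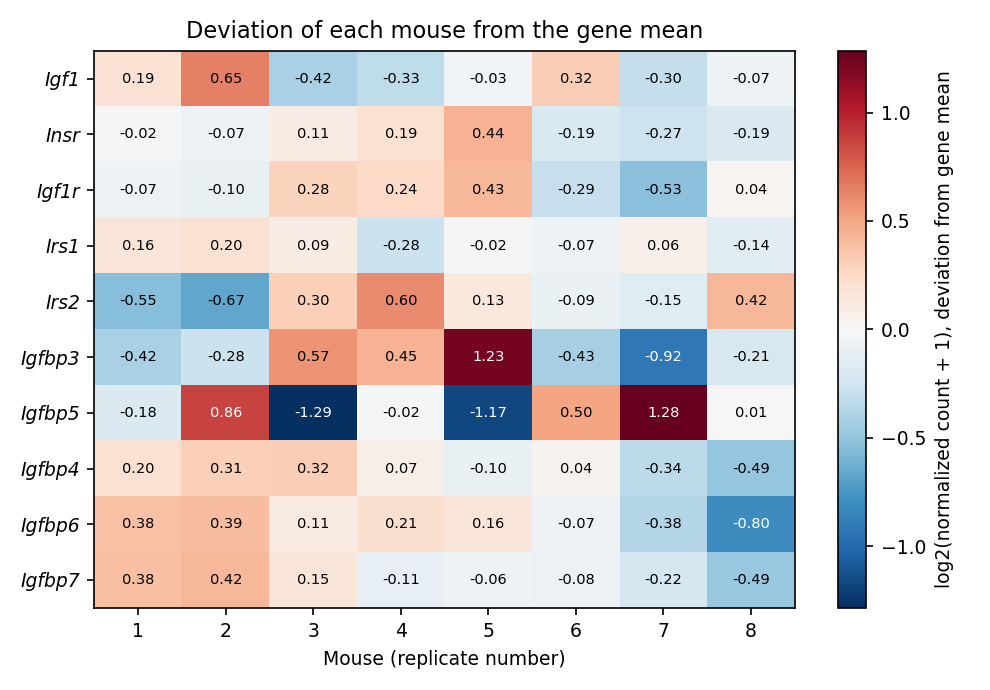
Each cell gives the deviation of 1 mouse (columns) from the mean of the gene (rows) in log2(normalized count + 1), red above and blue below the mean. Igfbp3 and Igfbp5 show the widest spread and opposite colours in mice 3, 5 and 7, while Igfbp4, Igfbp6 and Igfbp7 fall together in mouse 8.

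The spread between mice was wide for this set. Igfbp5 had a CV of 58.6% and Igfbp3 one of 53.4%, which placed them at percentiles 99.7 and 99.5 among the genes with a mean within 2-fold of theirs. Irs2 stood at percentile 94.8, Igf1 at 93.7 and Igfbp6, with a CV of 24.9%, at 90.4. Igf1r, Igfbp7, Igfbp4 and Insr stood between percentiles 76.9 and 87.1, and Irs1 alone was below the middle, at 40.1. The median CV of the 10 genes was 23.2%, against 15.6% over the 15135 genes. Counting error was small beside this, with a CV of 1.2 to 5.77%, since the lowest count of any of the 10 genes in any library was 155. These percentiles are a description and no test was made of them.

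Levels of different genes were compared per length, as normalized counts per kb of the union of exons in GENCODE M21. Igfbp5 was highest with 1186 ± 695 (SD, n = 8), followed by Igfbp7 with 706 ± 151. Next came 5 genes at similar levels: Igfbp6 (276 ± 68.7), Irs2 (244 ± 73.5), Igfbp4 (241 ± 46.6), Igfbp3 (228 ± 122) and Insr (219 ± 38.1). Irs1 (101 ± 10.9), Igf1 (57.1 ± 15.4) and Igf1r (52.3 ± 11.2) were lowest. Each neighbour in this order, and both pairs of related genes, were compared within mice by a two-sided exact permutation test that flips the sign of each mouse's difference, with Benjamini-Hochberg adjustment over the 11 comparisons.

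**Figure D2:**
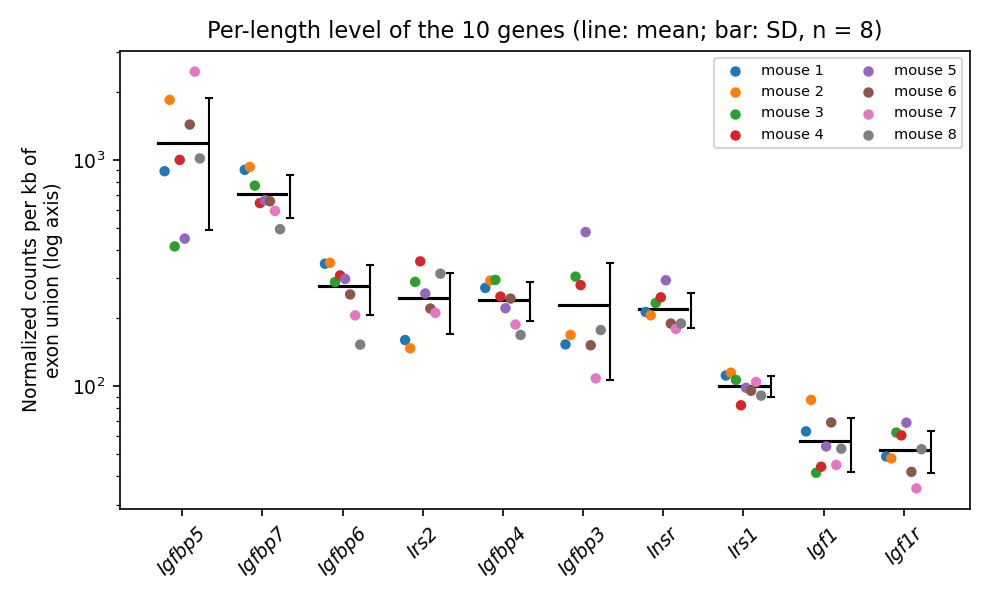
Normalized counts per kb of exon union (log axis) are plotted for each mouse (coloured points), with the mean (line) and SD (bar, n = 8), in the order of the means. Igfbp5 is spread most widely, from 414 to 2452, and the 5 genes from Igfbp6 to Insr overlap.

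Insr exceeded Igf1r by 2.07 ± 0.16 (SD) on the log2 scale of per-length levels, a 4.21-fold difference present in 8 of 8 mice (exact permutation p = 0.0078, adjusted p = 0.017). The value 0.0078 is the smallest that 8 mice allow. Irs2 exceeded Irs1 2.34-fold, by 1.23 ± 0.59, again in 8 of 8 mice and with the same exact p and adjusted p. Igfbp7 also lay 2.60-fold above Igfbp6, Insr 2.16-fold above Irs1 and Irs1 1.80-fold above Igf1 in 8 of 8 mice each, with the same p-values. Per-length levels of Igfbp5 and Igfbp7 did not differ beyond the spread, with Igfbp5 higher in 5 of 8 mice (log2 difference 0.54 ± 0.97, exact permutation p = 0.14, adjusted p = 0.26). The other 5 neighbours, Igfbp6 and Irs2, Irs2 and Igfbp4, Igfbp4 and Igfbp3, Igfbp3 and Insr, and Igf1 and Igf1r, did not pass the test either with the exon union. These values depend on the length chosen. With the median length of coding transcripts, Insr lay 7.85-fold above Igf1r and 5.92-fold above Irs1, and 4 of those 5 neighbours passed the test: Igfbp4 lay 6.02-fold above Irs2 and 4.55-fold above Igfbp3, Insr 1.91-fold above Igfbp3 and Igf1 5.32-fold above Igf1r. Igfbp4 became the highest gene at 1435 per kb and the log2 difference of Irs1 and Igf1 turned to -2.01. With the longest transcript that difference was 0.36 and did not pass, and Insr stood at rank 3 of the order and Igfbp6 at rank 6. The difference of Irs2 and Irs1, which have 1 annotated transcript each, is the same under all 3 lengths. The lengths cannot show whether reads in the 2822 Irs1 exon bases shared with Gm9747 were counted, which bears on each comparison with Irs1.

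Ratios of per-length levels within a mouse differed in how far they spread between mice. Insr over Igf1r, per length, ran from 3.59 in mouse 8 to 5.06 in mouse 7, a CV of 10.8%. Irs2 over Irs1 ran from 1.28 in mouse 2 to 4.32 in mouse 4, a CV of 40.2%. Igfbp5 over Igfbp3 ran from 0.936 in mouse 5 to 22.7 in mouse 7, a CV of 93.2%, whereas Igfbp6 over Igfbp7 ran from 0.309 in mouse 8 to 0.479 in mouse 4, a CV of 13.9%.

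Of the summed per-length level of the 5 binding proteins, Igfbp5 made up 20% in mouse 3 and 69.1% in mouse 7, with a mean of 42.5 ± 16.8% (SD, n = 8). Igfbp7 took 16.8 to 37.1% and Igfbp3 between 3.05% in mouse 7 and 22.7% in mouse 5. In mouse 5, Igfbp3 therefore held about as large a share as Igfbp5 with 21.3%. Igfbp4 and Igfbp6 stayed between 5.28 and 14.2%. These shares use the exon union: with the median coding length, Igfbp4 took 36.4 ± 6.44% and Igfbp5 28.9 ± 13.97%, and with the longest transcript they took 10.5 ± 2.67% and 40.9 ± 16.8%. The sum itself varied less than Igfbp5, from 2005 per kb in mouse 8 to 3581 in mouse 2.

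**Figure D3:**
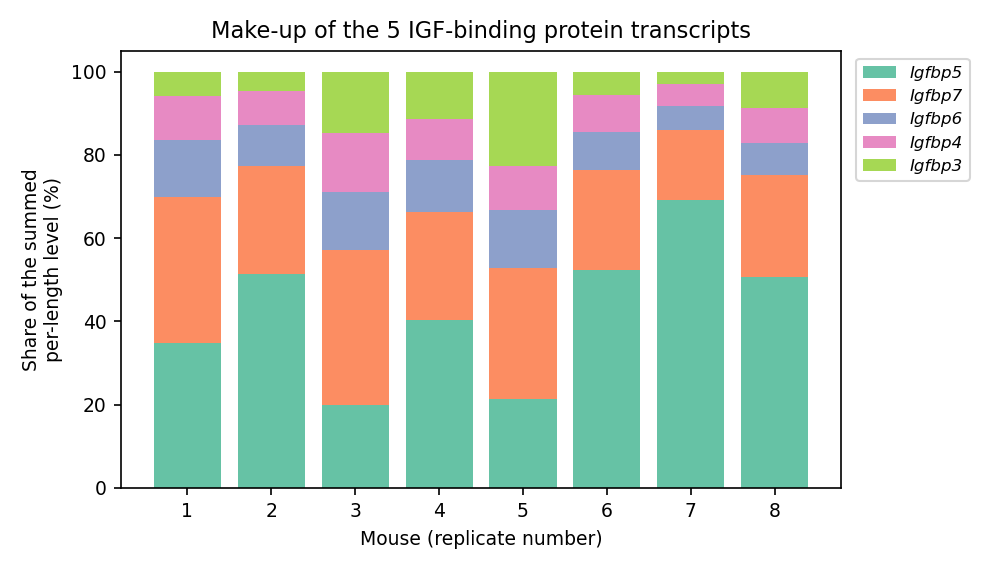
Stacked bars give the share (%) of each binding protein in the summed level of the 5 per kb of exon union, for each mouse. The Igfbp5 share runs from 20% in mouse 3 to 69.1% in mouse 7, and the Igfbp3 share is widest in mouse 5.

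Whether genes rose and fell together between mice was measured by the correlation of log2(normalized count + 1) over the 8 mice, tested two-sided by exact permutation of the pairings of mice. Among the 45 pairs of the 10 genes, 13 (28.9%) had an unadjusted exact p under 0.05, against 11.6% of the 151340 relations of these genes with any measured gene. An absolute r of at least 0.840 was reached by 9 pairs (20%), against 2.18% of all pairs of the 15135 genes, where 0.840 is the smallest absolute r among those 9 pairs, so their own values set the limit and the count is a description. Adjusted over all 151340 relations, 0% passed, member pairs included, and the smallest adjusted p of a pair was 0.17 by the exact permutation test. Adjustment over the 45 pairs alone, which were chosen with results of these data known, passed the 9 pairs. That count of 9 was 2 without mouse 1, 0 without mouse 2, 5 without mouse 3, 2 without mouse 5, 3 without mouse 6, 1 without mouse 7 and 3 without mouse 8, and it was 1 with Spearman's rho.

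**Figure D4:**
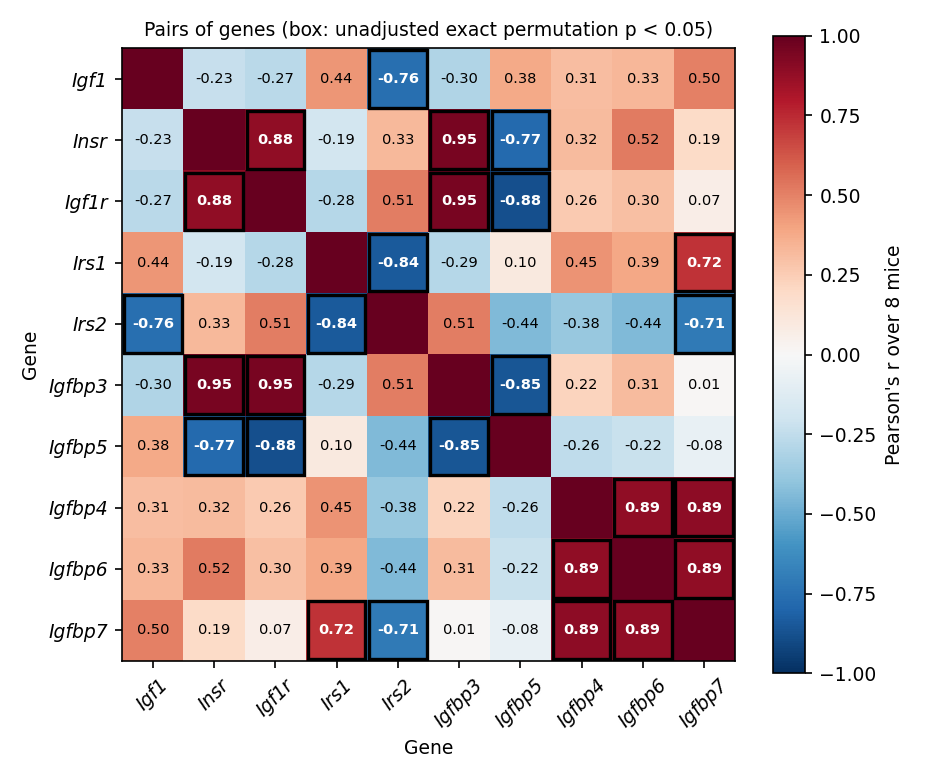
The matrix gives Pearson's r of log2(normalized count + 1) over the 8 mice for each pair of genes (rows and columns), red for positive and blue for negative, with boxes around pairs with an unadjusted exact permutation p under 0.05. The receptors and Igfbp3 form 1 block of positive values, Igfbp4, Igfbp6 and Igfbp7 form another, and Igfbp5 is negative with the first block.

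The receptors and Igfbp3 varied together. Igf1r and Igfbp3 had r = 0.95 (exact permutation p = 0.00022, 0.17 adjusted over all relations) and rho = 0.98 (exact permutation p = 0.0004), and without the 2 mice farthest from the median of Igf1r, r was 0.92. In each relation below, the 2 farthest mice are likewise those farthest from the median of 1 gene of the pair, or of the list score. They can therefore differ between relations. Correction for trends with GC content and length took the r of Igf1r and Igfbp3 to 0.80, which then missed the threshold over the 45 pairs. Insr and Igfbp3 had r = 0.95 (exact permutation p = 0.0011, 0.22 adjusted over all relations) and rho = 0.88 (exact permutation p = 0.0072), with r = 0.84 without the 2 farthest mice. For the receptors themselves, r was 0.88 (exact permutation p = 0.0035, 0.25 adjusted over all relations), rho was 0.90 (exact permutation p = 0.0046) and dropping the 2 farthest mice gave r = 0.81. Mouse 5 was highest and mouse 7 lowest for all 3 genes. The score of the blood list, whose 6 genes summed to between 7085 and 28374 normalized counts, was also highest in mouse 5 and correlated with Igfbp3 (r = 0.81, exact permutation p = 0.017, adjusted p = 0.22 over 160 relations), but r was 0.16 without the 2 farthest mice. The same score had r = 0.76 with Insr (0.27 without the 2 farthest mice), 0.65 with Igf1r (-0.044) and -0.71 with Igfbp5 (0.47). Its part in these relations was not tested.

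Igfbp5 varied in the opposite direction. Its r with Igf1r was -0.88 (exact permutation p = 0.0049, 0.26 adjusted over all relations), with rho = -0.88 (exact permutation p = 0.0072) and, after dropping the 2 farthest mice, r = -0.73. With Igfbp3, r was -0.85 (exact permutation p = 0.0070, 0.28 adjusted over all relations), rho was -0.79 (exact permutation p = 0.028) and dropping the 2 mice gave r = -0.64. With Insr, r was -0.77 (exact permutation p = 0.025, 0.37 adjusted over all relations). Correction for trends with GC content and length took the r of Igfbp5 and Igf1r to -0.80, which then missed the threshold over the 45 pairs, and that of Igfbp5 and Igfbp3 to -0.87. Igfbp5 had its highest value, 14729, in the mouse with the lowest Igf1r, Insr and Igfbp3.

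**Figure D5:**
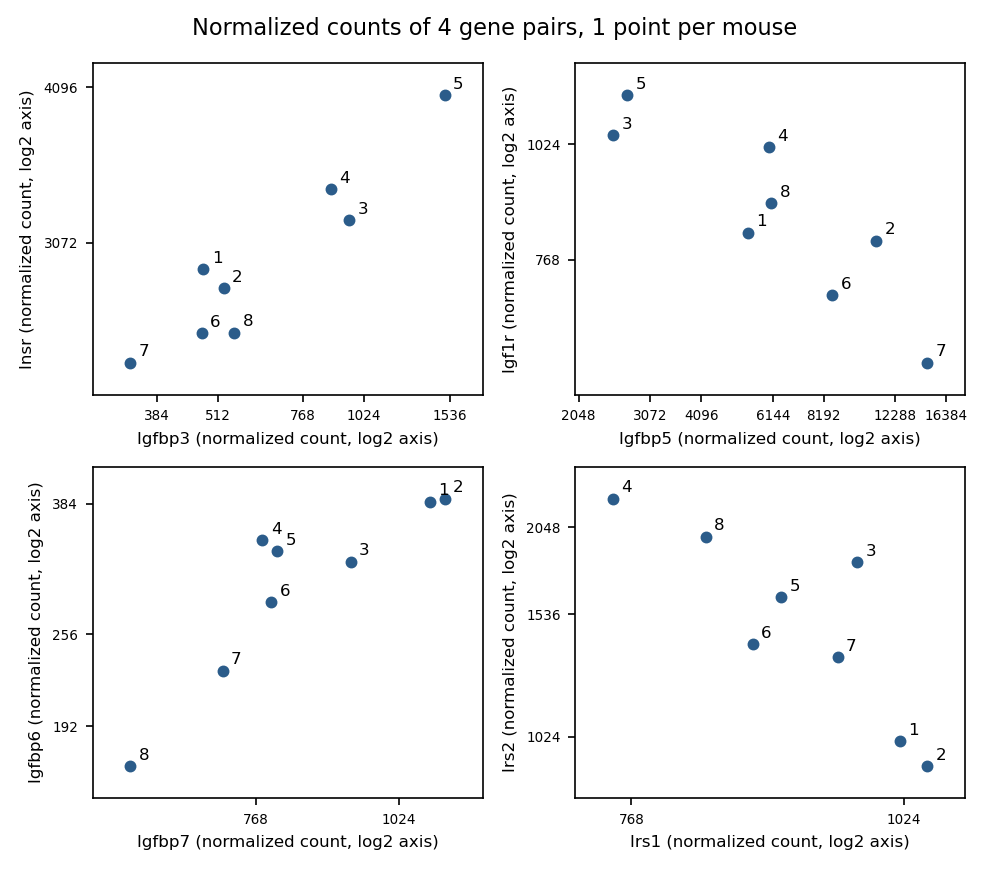
Normalized counts of 4 pairs of genes are plotted on log2 axes, 1 numbered point per mouse. Insr rises with Igfbp3, Igf1r falls with Igfbp5, Igfbp6 rises with Igfbp7 and Irs2 falls with Irs1, with mice 1 and 2 at one end and mouse 4 at the other of the last pair.

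Igfbp4, Igfbp6 and Igfbp7 formed a second group. Igfbp4 and Igfbp7 had r = 0.89 (exact permutation p = 0.0029, 0.24 adjusted over all relations), rho = 0.83 (exact permutation p = 0.015) and, after dropping the 2 farthest mice, r = 0.77. Igfbp6 and Igfbp7 had r = 0.89 (exact permutation p = 0.0018, 0.23 adjusted over all relations), rho = 0.83 and r = 0.78 without the 2 farthest mice. Igfbp4 and Igfbp6 had r = 0.89 too (exact permutation p = 0.0040, 0.25 adjusted over all relations), but rho was 0.71 (exact permutation p = 0.058) and r was 0.44 without the 2 farthest mice. The size of this relation thus depends on those 2 together, and an r over so few mice is imprecise. Leaving out single mice kept the r of Igfbp4 and Igfbp6 between 0.79 and 0.94. As to the sequences shown above, Igfbp7 held GC boxes and Igfbp4 and Igfbp6 held none in the 250 bases.

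Scores of genes that mark other cell types were also correlated with this second group, although none passed after adjustment by Pearson's r with all 8 mice. Igfbp6 correlated with the score of 8 fibroblast genes (r = 0.92, exact permutation p = 0.00052, adjusted p = 0.083 over 160 relations), with rho = 0.98 and r = 0.86 without the 2 farthest mice. Its r was 0.86 with the tendon and the macrophage list (for macrophages 0.35 without the 2 farthest mice), 0.79 with the adipocyte list and 0.77 with the endothelium list. Igfbp7 had r = 0.89 with the adipocyte list, 0.82 with fibroblasts (0.53 without the 2 farthest mice), 0.80 with endothelium and 0.73 with pericytes and smooth muscle. Igfbp4 had r = 0.83 with the adipocyte list, 0.80 with macrophages (0.0050 without the 2 farthest mice) and 0.78 with fibroblasts (0.49 without them). All 8 fibroblast genes were measured, summing to 10294 normalized counts in mouse 8 and 19186 in mouse 2. The tendon list had 5 of 6 genes past the count minimum and summed to 905 in mouse 8 and 6158 in mouse 1, and the adipocyte list had 5 of 6 and summed to between 3054 and 4895. Macrophage genes (9 of 9) summed to between 2516 and 6279, endothelial genes (8 of 8) to between 5430 and 7781, and pericyte and smooth muscle genes (7 of 7) to between 8038 and 13233. No gene of these lists was at 0 in every mouse. Their part in the binding protein levels was not tested. Over the 160 relations of the 10 genes with 14 lists and 2 library measures, 23 (14.4%) had an unadjusted exact p under 0.05, near the 11.6% for any measured gene, and 0 passed after adjustment. Taken singly, the 10 genes had such a p with between 5.11% (Irs1) and 19.5% (Igfbp6) of all measured genes, among them Irs2 with 15.2%, Igfbp7 with 15.0%, Insr with 13.8%, Igfbp4 with 12.8% and Igfbp3 with 12.5%. Leaving out mouse 3 gave 4 that passed (Igfbp4 and Igfbp6 with fibroblasts, Igfbp6 with tendon and Igfbp7 with adipocytes), and leaving out mouse 1 or mouse 6 gave 1 each. By Spearman's rho with all 8 mice, 2 passed, Igfbp6 with fibroblasts and Igfbp7 with adipocytes (rho = 0.98 and adjusted exact permutation p = 0.032 each).

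Irs1 and Irs2 varied against each other with r = -0.84 (exact permutation p = 0.0095, 0.29 adjusted over all relations), rho = -0.83 (exact permutation p = 0.015) and, after dropping the 2 farthest mice, r = -0.65. Their upstream windows both held an E-box, and its part in this relation was not tested. With library totals in place of the size factors, r was -0.14, so the size of this relation depends on the scaling. Removing the trends on GC content and length left r = -0.43. Both substrates also had an unadjusted exact permutation p under 0.05 with Igfbp7, with r = 0.72 for Irs1 (p = 0.043, 0.41 adjusted over all relations) and r = -0.71 for Irs2 (p = 0.0495, 0.43 adjusted over all relations). Of the cell type lists, Irs1 had r = 0.81 with pericytes and smooth muscle (0.55 without the 2 farthest mice) and 0.75 with adipocytes (0.62). Neither passed after adjustment, and their part in the Irs1 values was not tested. Igf1 had r = -0.76 with Irs2 (exact permutation p = 0.031, 0.38 adjusted over all relations), and no unadjusted exact p under 0.05 with any other of the 10 genes.

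For the muscle wasting lists no relation passed after adjustment. The r of Irs2 was 0.83 with the list of FoxO targets and atrophy genes (exact permutation p = 0.013, adjusted p = 0.22 over 160 relations), whose 10 genes summed to between 109141 normalized counts in mouse 7 and 198949 in mouse 4, and 0.77 with the list of denervation and disuse genes, 7 of 8 of which were measured. Irs1 had r = -0.85 with the denervation and disuse list (exact permutation p = 0.0085, adjusted p = 0.22 over 160 relations), and -0.56 without the 2 farthest mice. Igf1r had r = 0.76 with the FoxO and atrophy list. The share of counts taken by the 10 most abundant genes, a measure of the library and not of a pathway, was inversely related to Irs2 (r = -0.85, exact permutation p = 0.0094, adjusted p = 0.22 over 160 relations). The same share had r = -0.71 with Igfbp3 (-0.69 without the 2 farthest mice), -0.68 with Igf1r (-0.72), -0.54 with Insr (-0.64) and 0.65 with Igfbp5 (0.69). Its part in the values of these genes was not tested.

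Among all measured genes, those with the highest r to each of the 10 genes are given as a description over 8 mice. Igf1 was most like Ssr1 (r = 0.98), which encodes a subunit of the translocon-associated complex of the endoplasmic reticulum, then 9230114K14Rik (0.97) and Usp21 (0.95), a ubiquitin protease. Among the 3 genes most like Igf1r were Cbx3-ps8 (0.97) and Naglu (0.97), a lysosomal enzyme, and Naglu was also among the 3 genes most like Igfbp3 (0.95), after the thiamine transporter Slc19a2 (0.96) and Smyd4 (0.96). Insr was most like Gm6352 (0.99), Ern1 (0.98), the IRE1 sensor of the unfolded protein response, and Gm14122 (0.98). Irs1 was most like the gene listed as Mir6236 (0.96), Cytl1 (0.96) and Hspa12a (0.95). Abhd4 (0.98) and BC085271 (0.97) were among the 3 genes most like Irs2. Igfbp5 was most like Polr3g (0.97), a subunit of RNA polymerase III, the unconventional myosin Myo10 (0.95) and Serinc2 (0.94). Igfbp4 was most like the macrophage receptor Siglec1 (0.99, with as few as 15 reads in a library), Arl15 (0.98) and Cnn2 (0.97). Igfbp6 was most like Sh3bgrl (0.99), Colec12 (0.99) and Chrdl1 (0.99), a secreted BMP antagonist. Igfbp7 was most like Poc5 (0.98), Slc1a3 (0.98) and the caveolar protein Cav1 (0.98). By Spearman's rho, 3 of the 30 genes so chosen remained among the nearest.

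Of 57 further genes of the pathway and of the kinase CK2, 49 passed the count minimum. Their median CV was 16.6%, from 5.19% for Pik3ca, the catalytic subunit of phosphatidylinositol 3-kinase, to 43.4% for Socs3, an inhibitor of cytokine signalling. In 490 relations with the 10 genes, 52 (10.6%) had an unadjusted exact p under 0.05, beside the 11.6% for any gene, and 0 passed after adjustment over all relations. Taken over the list, the pathway genes were thus related to these 10 genes about as often as any gene, with shares that ran from 7.06% to 30% among its 5 parts.

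The second ligand, Igf2, had 498 ± 153 normalized counts (SD, n = 8), from 358 in mouse 3 to 820 in mouse 6, while Ins1, Igfbp1 and the receptor substrate Irs4 were at 0 counts in every mouse. Of the ligand and processing genes measured, the growth hormone effector Stat5b had the highest per-length level (1282 ± 247 normalized counts per kb) and the protease Pappa the lowest (3.30 ± 0.92). Growth hormone receptor Ghr, which drives Igf1 transcription in liver, had 4760 ± 426 normalized counts and a CV of only 8.95%, with r = -0.83 to Igfbp3 (exact permutation p = 0.012, 0.31 adjusted over all relations). Pappa had 36.4 ± 10.1 normalized counts, and as few as 22 reads in a library, so counting error weighs on its values.

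Among adaptors, Grb2 had the highest per-length level (448 ± 58.3 normalized counts per kb) and Grb14, which inhibits the insulin receptor, the lowest (10.8 ± 3.41). Grb14 was inversely related to Insr (r = -0.86, exact permutation p = 0.0066, 0.28 adjusted over all relations). Grb10, a related inhibitor, had 1707 ± 330 normalized counts and no relation with an unadjusted exact p under 0.05. The regulatory subunit Pik3r1 had 2708 ± 518. Akt2, the AKT isoform that carries insulin's effect on glucose transport, had the highest per-length level of its list (1243 ± 228 per kb), above Akt1 (904 ± 208), and Pik3cd the lowest (32.5 ± 3.18). The closest relation of the list was that of the AKT-activating kinase Pdpk1 with Insr (r = 0.97, exact permutation p = 0.0004, 0.19 adjusted over all relations), where mouse 5 had the highest value of both, 3079 and 4037 normalized counts. Pik3ca, Socs3 and Pdpk1 were named after their values were seen.

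Of the effectors, the glucose transporter Slc2a4 had the highest per-length level (2117 ± 360 normalized counts per kb) and Rictor, a subunit of mTOR complex 2, the lowest (50.9 ± 4.64). Eif4ebp1, the translation repressor that mTOR inactivates, ranged from 1837 in mouse 2 to 4156 normalized counts in mouse 3 and correlated with Igfbp3 (r = 0.89, exact permutation p = 0.0053, 0.26 adjusted over all relations). The FoxO factor Foxo1 had 3349 ± 614 normalized counts and an inverse relation to Igfbp7 (r = -0.86, exact permutation p = 0.0064, 0.27 adjusted over all relations). Foxo3 had 1479 ± 242 and no such relation. CK2 is the kinase whose binding by MOTS-c the study examined. For K14Q MOTS-c, the form these mice received, the study reported weaker binding to CK2 alpha and no rise in muscle CK2 activity. The values here are transcripts of the subunits, not binding or kinase activity. The CK2 subunits varied little, with CVs of 7.37% for Csnk2a1, 7.0% for Csnk2a2 and 7.49% for Csnk2b. Csnk2b had the highest per-length level of the 3 (835 ± 62.6 normalized counts per kb) and Csnk2a2 the lowest (67.4 ± 4.72). Of the 30 relations of the 3 subunits with the 10 genes, 9 (30%) had an unadjusted exact p under 0.05, against 11.6% for any measured gene, and 0 passed after adjustment over all relations. The smallest p was that of Csnk2a2 with Irs2 (r = 0.79, exact permutation p = 0.010, 0.30 adjusted over all relations), followed by Csnk2b with Insr (r = -0.80, exact permutation p = 0.016, 0.33 adjusted over all relations). Since several of the 10 genes varied together, these relations are not independent of each other.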

How the data were processed

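Poly-adenylated RNA of 8 muscles was sequenced on an Illumina NextSeq platform. Per the labels and methods, the authors used FastQC, fastp and STAR on GRCm38.p6, counted reads per gene with summarizeOverlaps and normalized with DESeq2. The annotation release, use of strand and multimapping reads are not given in the sources used here. The values the authors deposited are a signal, counts divided by 1 size factor per library (0.906 to 1.20): 100% of nonzero values were whole reads within 0.01 of a read. The design had allowed for either unit; the deposited values were the main normalization and recovered counts gave depth, count minimum and other scalings. Of 55487 identifiers, 55227 were found in GENCODE M21, which gave symbols, positions and lengths. The 28 library pairs differed by a chi-square per degree of freedom of 16.1 to 119, so no library was a copy. Counting precision was set by 23985356 to 33012497 reads without molecular identifiers.

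The 8 mice form 1 group, so edgeR 4.0.16 served only for TMM factors and dispersions. A pseudocount of 1 was used on the log2 scale, with a minimum of 10 counts in every library. Marker scores are means of z-scores. Tests are named in the text, with the mouse as the unit. The p-values of level comparisons concern the difference of 2 genes within mice, and those of correlations the pairing of 2 values over mice. Neighbours in the order of levels were set by the means of these same data. Members, lists and named genes (all members, the 3 genes most like each, and set pathway genes) were chosen with earlier results of these data known, and some genes that the rule names are not reported here. Alternatives were TMM factors, library totals, a pseudocount of 5, Spearman's rho, other transcript lengths, no count minimum for marker genes, a mean of at least 100 for the most similar genes, edgeR dispersion and leaving out each mouse. Correction for trends with GC content and length, adjustment over all relations, and other lengths for the binding protein shares and ratios were chosen after seeing the data. The work used scipy 1.17.1 and numpy 2.4.6 in Python 3.11.15, with pandas 2.3.3, and R 4.3.3, and scripts were tested on simulated data. Wild-type MOTS-c and control libraries were not analysed here.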

Additional observations from a re-analysis of the deposited data

Results flagged for a closer look

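Of 42 values with 8 mice each, 5 had 1 mouse apart from the other 7, by a gap above Dixon's critical value at the 95% level. That critical value is for normally distributed data, for which chance gives about 2.1. The gaps were taken on unlogged counts, ratios and shares and were not repeated on the log2 scale. Several of the 42 values share genes, so 5 against 2.1 is a description and does not show an excess. The ratio of Igfbp5 to Igfbp3 per length was 22.7 in mouse 7, against 0.936 to 10.9 in the others. The ratio of Igfbp5 to Igf1 was 54.6 in mouse 7, against 8.28 to 22.7. The summed binding proteins over Igf1 gave 79.0 in mouse 7, against 37.9 to 56.3. The size of these ratios depends on transcript length: with the median coding length, mouse 7 had an Igfbp5 to Igf1 ratio of 7.54 (1.14 to 3.13 in the others) and an Igfbp5 to Igfbp3 ratio of 14.9 (0.617 to 7.20), and it stayed highest for the sum over Igf1 but no longer apart (14.01, against 7.70 to 12.4). These 3 ratios share Igfbp5 and mouse 7 and are not independent of each other. Outside the 10 genes, Grb10 had 2418 normalized counts in mouse 5, against 1344 to 1837, and Grb2 had 1687 in mouse 7, against 1147 to 1394.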

How the results depend on the processing

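No paired analysis was possible because the 8 mice form 1 group, so that no groups could be paired and genes alone were compared within mice. Leaving out any mouse kept the 5 level comparisons past the threshold (TMM factors and library totals cancel in a difference within a mouse and test nothing here), whereas the longest transcript gave 3 and the median coding transcript 2 in their own orders. The count of 9 pairs past the threshold over 45 pairs became 0 to 9 when a mouse was left out, 1 with Spearman's rho and 0 with adjustment over all relations, and stood at 8 with TMM factors, 6 with library totals and 7 after correction for GC content and length, of which 6 were among the 9. Without mouse 4, 9 pairs passed, of which 8 were among the 9. Of 117 recomputed r values of those pairs, 54 stayed past the threshold, 63 kept their sign but missed it and 0 reversed, and with 7 mice the test has fewer pairings. The 0 relations with marker scores became 0 to 4 when a mouse was left out and 2 with Spearman's rho. The count of 9 genes above the median CV of genes of similar level was 8 without mouse 5 and 9 in each other alternative. Of 110 level differences under other lengths or without a mouse, 100 kept their call, 1 missed the threshold, 4 passed it anew and 5 reversed: Irs2 minus Igfbp4 (0.091 without mouse 1, 0.12 without mouse 2, 0.0021 without mouse 6, down to -0.15 without mouse 8, and -2.59 with median coding transcripts), Igfbp3 minus Insr (0.014 without mouse 7, down to -0.19 without mouse 5, and -0.93 with median coding transcripts) and Irs1 minus Igf1 (-2.01 with median coding transcripts). Those lengths also gave 2.19 for Igfbp4 minus Igfbp3 and 2.41 for Igf1 minus Igf1r. The lowest count of any of the 10 genes in a library was 155, so counting weighs little on them and more on low genes such as Pappa (22 reads). The 8 mice limit p to 0.0078 in the level comparisons, and the choice of transcript length moves the order of levels, Igf1, Igfbp4, Igfbp6 and Insr included.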
